A study of Mus musculus with 4 samples.

Results

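The genes described here are 10 receptors and signalling genes that place B cells in the follicle and hold them in the germinal center (GC). They were chosen by name as a pathway, and all 10 were among the 31053 genes measured. They are the chemokine receptors Cxcr4, Cxcr5, Ccr7 and Ccr6, the oxysterol receptor Gpr183, the sphingosine 1-phosphate receptors S1pr1 and S1pr2, the G protein subunit Gna13, the exchange factor Arhgef1 and the receptor regulator Rgs13. Their transcripts were counted in single splenic B220+IgD- cells 10 days after sheep red blood cells (SRBC), which induce GCs, were injected. The mice were females of 8 weeks on a C57BL/6J background, and all of them carried 1 Cγ1-cre allele, which recombines floxed alleles in GC B cells. WT had no floxed allele, C was heterozygous for floxed Crebbp, K was heterozygous for floxed Kmt2d, and CK was heterozygous for both. Each genotype was 1 mouse and 1 library, so no difference between genotypes has a replicate check, no p-value was computed, and every interval below is a 95% interval for counting error only.

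B cells enter the follicle along CXCL13, which CXCR5 senses, whereas CCR7 pulls cells toward the T cell zone and GPR183 toward the outer follicle along oxysterols. Within the GC, CXCR4 keeps centroblasts (CB) in the dark zone, and cells that lose it move to the light zone as centrocytes (CC). S1PR1 drives exit toward blood and lymph, where sphingosine 1-phosphate is high. S1PR2 does the reverse: it signals through Gα13 and ARHGEF1 and confines B cells to the GC. RGS13 shortens the signal of Gαi-coupled chemokine receptors.

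The comparison covered 9804 cells that the deposited annotation names, out of 39009 barcodes, plus 8539 unannotated cells in clusters of follicular or marginal zone B-like cells and 6973 in T-like clusters. The clusters were made without the 10 genes. Fewer cells expressing a gene and less RNA per cell cannot be told apart in summed counts. The annotated cells comprised 680 early CB, 2262 CB, 3758 cells transitioning from CB to CC, 2444 CC, 82 recycling cells and 578 prememory cells. Summed GC markers ran from 2085 to 2984 CPM (the UMIs of a gene scaled to the total of its class) over the libraries in early CB, CB, transitioning cells and CC, against 157 to 235 CPM in follicular B-like cells. Prememory cells went against their GC label: their GC markers summed to 119 to 165 CPM, and 513 of the 578 fell in follicular B-like clusters. Their follicular B markers, however, summed to 1973 to 2482 CPM, below the 3316 to 3905 CPM of follicular B-like cells. That range overlapped the 2228 to 2623 CPM of CC. Summed plasma cell markers, part of which GC B cells also express, were at 2148 to 3905 CPM from CB to CC and summed myeloid markers at 165 to 362 CPM, against 819 to 969 and 351 to 436 CPM in follicular B-like cells. Erythroid markers were at most 7.38 CPM from CB to CC except in C transitioning cells, at 925 CPM, and their part in the results was not tested. Summed T cell markers were at most 48.4 CPM in CB, transitioning cells and CC, with 6 or more of 7 markers detected, and at least 7029 CPM in CD8 T-like cells. Library totals ran from 33270825 to 39803865 UMIs, and pairs of libraries shared 17 to 31 barcodes. K stood apart in the clustering. The cluster that held 762 of its 1029 transitioning cells had 28 barcodes of WT, 10 of C and 27 of CK, and the one that held 738 of its 1252 follicular B-like cells had 39, 23 and 26. Sets of 4 values follow the order WT, C, K and CK throughout. Crebbp in annotated cells was at 68.4, 43.0, 38.6 and 38.0 CPM, so it was also low in the library labelled K. Kmt2d was at 18.5, 21.3, 9.85 and 15.1 CPM, but 3′ counts outside the floxed exons do not check the deletion.

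S1pr2 and Rgs13 set GC cells apart from every other B cell class examined. S1pr2, the confinement receptor, was at 115, 123, 122 and 130 CPM in CB. In CC it reached 167, 171, 145 and 161 CPM. In follicular B-like cells it was at 4.47, 2.83, 8.33 and 5.25 CPM, so that no library of either class overlapped the other. The log2 ratio of the 4 GC subtypes from early CB to CC over follicular B-like cells was 4.96 ± 0.66 (mean ± SD of the 4 libraries). Follicular helper T-like cells, a T cell class that also enters the GC, held 42.1, 37.8, 35.2 and 30.9 CPM of S1pr2, and CD8 T-like cells held 3.61 to 6.88 CPM. Thinned to 2000 UMIs per cell, the share of CC with an S1pr2 UMI was 26.5%, 28.7%, 27.6% and 24.9%, against 0.286% to 1.24% of CD8 T-like cells. Without thinning these shares were 48.4%, 41.6%, 40.4% and 34.0% of CC, with median depths of 4741, 3498, 3811 and 2670 UMIs, and 0.873% to 1.89% of CD8 T-like cells, with medians of 1915 to 3249 UMIs.

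Rgs13 had the same shape. It was at 704, 492, 537 and 510 CPM in CB, with WT the highest, against 44.4, 40.7, 42.5 and 54.1 CPM in follicular B-like cells, a log2 ratio for the GC subtypes of 3.54 ± 0.22 (SD, 4 libraries). CD8 T-like cells, which serve here as the background of free RNA, held 11.2 to 24.6 CPM. Thinned to 2000 UMIs, the share of CB with an Rgs13 UMI was 70.7%, 56.7%, 59.8% and 56.8%, against 1.93% to 5.29% of CD8 T-like cells. Without thinning it was 91.3%, 79.1%, 81.2% and 77.3% of CB, at median depths of 4604 to 5526 UMIs, and 2.62% to 6.59% of CD8 T-like cells. Gna13, which couples to S1PR2, was at 142 to 158 CPM in CB and 53.5 to 68.2 CPM in follicular B-like cells. It was the GC-high gene that follicular helper T-like cells matched, at 106 to 156 CPM. Arhgef1, the exchange factor downstream of Gα13, ran the other way, at 193 to 213 CPM in CB, 317 to 376 CPM in follicular B-like cells and 395 to 449 CPM in CD8 T-like cells.

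The stretches before the start sites of S1pr2, Rgs13 and Gpr183 are shown because these genes separated GC from follicular B-like cells most clearly in opposite directions among the members with a stretch in the table used. They are the 250 bases before the RefSeq start in GRCm38.p6, read on the gene's strand, which is the minus strand in each. S1pr2 lies at chr9:20976794-20977043, Rgs13 at chr1:144177373-144177622 and Gpr183 at chr14:121965194-121965443. Capitals mark CAGGTG, the E-box bound by E2A, or CACCC, the core bound by KLF factors, on either strand.
S1pr2: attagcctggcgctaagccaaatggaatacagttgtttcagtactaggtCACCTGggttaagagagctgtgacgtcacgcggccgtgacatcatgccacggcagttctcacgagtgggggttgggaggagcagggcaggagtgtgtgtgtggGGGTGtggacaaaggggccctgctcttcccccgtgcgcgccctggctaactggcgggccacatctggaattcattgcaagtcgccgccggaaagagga
Rgs13: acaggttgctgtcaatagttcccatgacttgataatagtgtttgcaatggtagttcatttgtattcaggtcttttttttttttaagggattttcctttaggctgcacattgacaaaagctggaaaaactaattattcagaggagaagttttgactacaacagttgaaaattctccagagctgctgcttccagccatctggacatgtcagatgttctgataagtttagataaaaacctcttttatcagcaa
Gpr183: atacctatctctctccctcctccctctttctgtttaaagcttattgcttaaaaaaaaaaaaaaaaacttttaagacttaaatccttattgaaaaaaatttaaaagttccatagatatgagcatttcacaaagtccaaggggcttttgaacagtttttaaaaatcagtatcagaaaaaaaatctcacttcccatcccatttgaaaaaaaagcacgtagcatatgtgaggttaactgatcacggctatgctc
The S1pr2 stretch held 1 E-box and 1 KLF core, which do not overlap, and the other two held neither. Of 27025 such stretches in the table, 17.1% held the E-box and 51.3% the KLF core. The table held 7 of the 10 members, not Cxcr5, Ccr7 and S1pr1. Of the 7, 1 held the E-box and 3 the KLF core. The forkhead sequence TGTTTAC was in 3.09% of stretches and in none of these 7. A match is only a description of these letters.

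**Figure D1:**
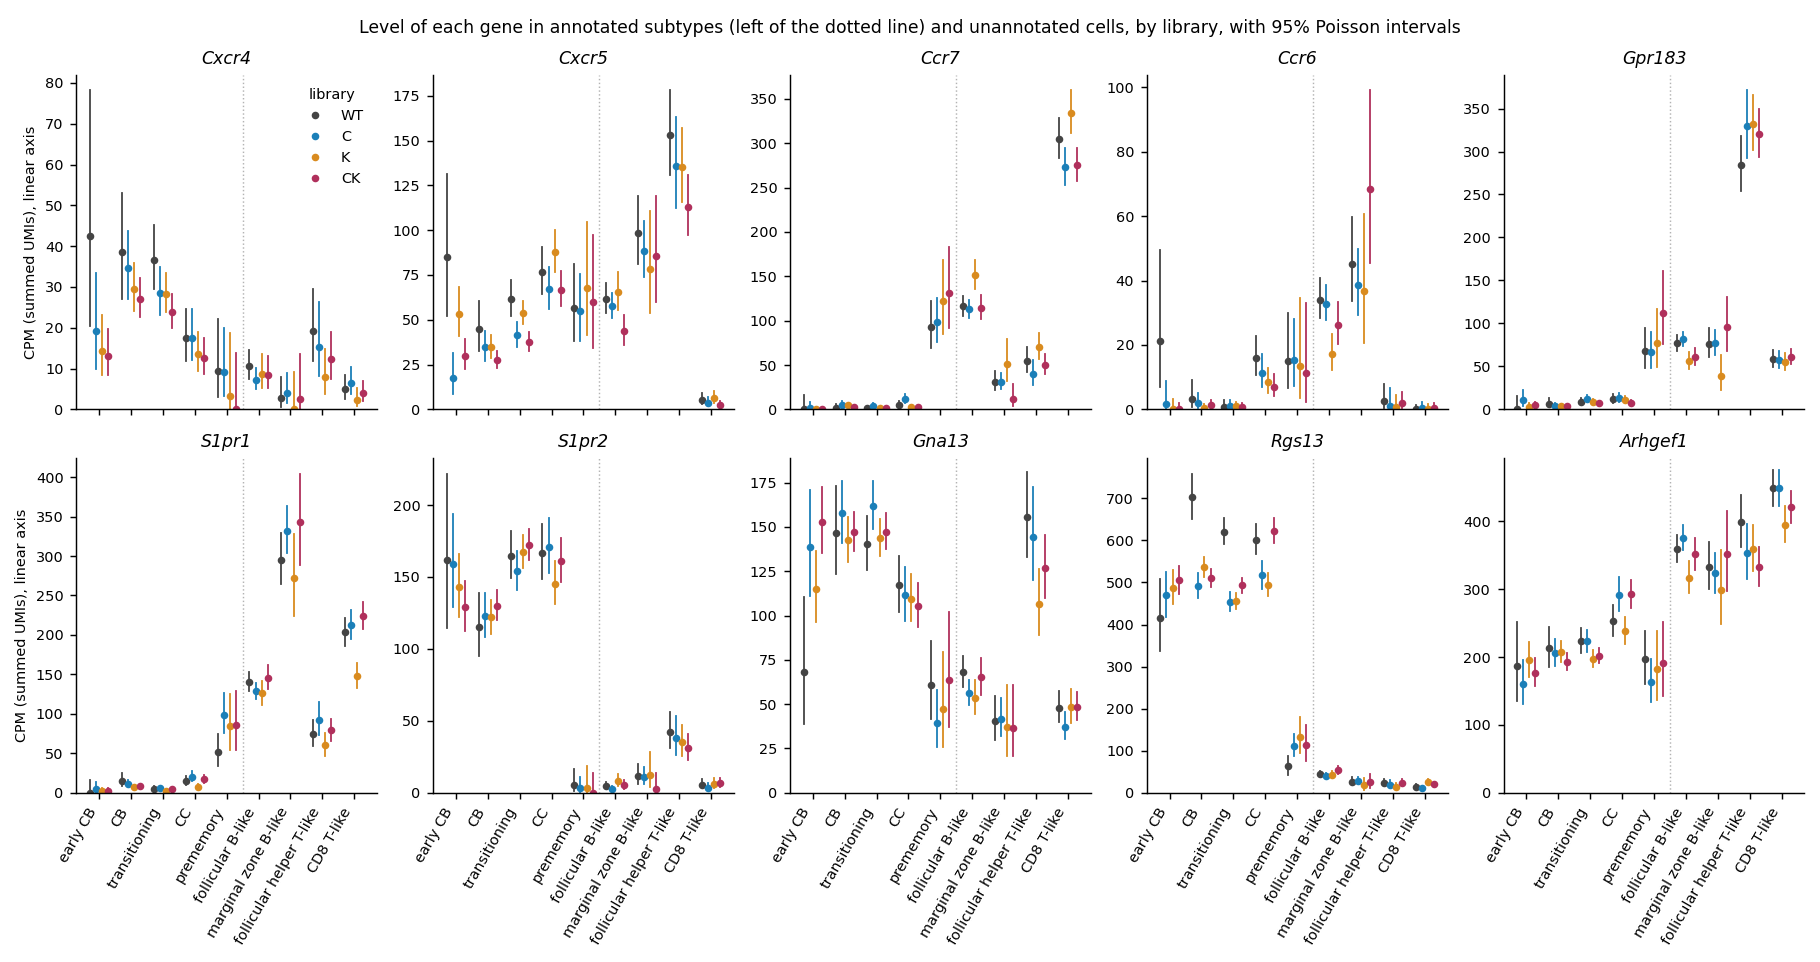
Each panel plots 1 gene, with CPM of summed UMIs on a linear axis and the cell class on the x axis; points are the 4 libraries and bars are 95% Poisson intervals. S1pr2 and Rgs13 stand high from early CB to CC. Both are lower in prememory cells and in the unannotated classes plotted, where Ccr7, Gpr183 and S1pr1 are higher than from early CB to CC.

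Ccr7, S1pr1, Gpr183 and Ccr6 formed the opposite group, low in GC cells and high in follicular B-like or T-like cells. Ccr7, the receptor for T zone chemokines, was at 1.04, 5.29, 4.55 and 2.97 CPM in CB, from 1 to 16 UMIs per library. In follicular B-like cells it was at 116, 113, 152 and 115 CPM, and in CD8 T-like cells at 273 to 335 CPM, above every other class in each library. Marginal zone B-like cells, which lie outside the follicle, had only 12.2 to 51.5 CPM. S1pr1, the egress receptor, was at 6.82 to 14.5 CPM in CB and 126 to 146 CPM in follicular B-like cells, and at 272 to 342 CPM in marginal zone B-like cells. The log2 ratio of the GC subtypes over follicular B-like cells was -5.35 ± 0.76 for Ccr7 and -4.13 ± 0.51 for S1pr1 (SD, 4 libraries).

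Gpr183, the oxysterol receptor, was at 3.41 to 6.24 CPM in CB and 56.1 to 81.4 CPM in follicular B-like cells. Its highest level was in follicular helper T-like cells, at 285, 330, 333 and 321 CPM, above every value of the next class, a further T-like cluster at 153 to 266 CPM. Ccr6, the receptor for CCL20, was at 0.284 to 3.12 CPM in CB and 17.1 to 34.1 CPM in follicular B-like cells. It was highest in marginal zone B-like cells, at 45.3, 38.5, 36.8 and 68.5 CPM. CD8 T-like cells held 2 Ccr6 UMIs in all 4 libraries. The log2 ratio of the GC subtypes over follicular B-like cells was -3.12 ± 0.20 for Gpr183 and -3.01 ± 0.59 for Ccr6 (SD, 4 libraries).

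Cxcr5 and Cxcr4 divided differently. Cxcr5, the follicle homing receptor, did not separate GC from follicular B-like cells: the log2 ratio was -0.19 ± 0.19 (SD, 4 libraries). It was highest in follicular helper T-like cells, at 153, 136, 135 and 113 CPM, followed by marginal zone B-like cells at 78.5 to 98.7 CPM and CC at 66.8 to 87.9 CPM, whose ranges overlap. CD8 T-like cells, which do not home to follicles, held 2.29 to 6.26 CPM. Cxcr4 was at most 38.5 CPM in the classes that held at least 20 of its UMIs in every library. CB, at 27.2 to 38.5 CPM, and transitioning cells, at 23.9 to 36.7 CPM, overlapped, and follicular B-like cells stood at 7.18 to 10.6 CPM, below both. Prememory cells held 0 to 6 Cxcr4 UMIs per library. In CK their count of 0 allows up to 3 UMIs, or 11.3 CPM, and no ratio was formed from it.

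The GC zones were then compared within each library, since CXCR4 is the textbook dark zone marker. Of the 9 members with at least 20 UMIs in CB and CC together in every library, 4 differed by 1.5-fold or more the same way in all 4 libraries, against 14.7% of the 7674 genes tested. The subtype names were made from expression, so this is a description without a p-value. Cxcr4 was lower in CC, at 17.5, 17.5, 13.6 and 12.6 CPM in WT, C, K and CK, with log2 ratios over CB of -1.14, -0.98, -1.12 and -1.11. Cxcr5 was higher in CC, with log2 ratios of 0.78, 0.95, 1.34 and 1.29. Every interval of both genes left out 0. With at least 50 UMIs in every library, or with cells thinned to 2000 UMIs, 6 members were left and 2 of them passed. Leaving out any 1 library, K included, kept the count at 4. Ccr6 was higher in CC with log2 ratios of 2.35, 2.53, 4.88 and 2.46, which rest on 3, 4, 1 and 6 UMIs in CB against 29, 21, 21 and 19 in CC. Gpr183 was higher in CC with log2 ratios of 0.95, 1.79, 1.66 and 0.95, and the intervals of WT (-0.40 to 2.54) and CK (-0.04 to 1.95) held 0.

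The confinement genes changed less between zones. S1pr2 was higher in CC in all 4 libraries, with log2 ratios of 0.53, 0.48, 0.25 and 0.31, each interval leaving out 0 but none past 1.5-fold. Gna13 was lower in CC in all 4, with -0.32, -0.50, -0.38 and -0.48, and Arhgef1 was higher in all 4, with 0.25, 0.50, 0.20 and 0.60. Thus 7 of the 9 members had the same direction in the 4 libraries, against 59.7% of the genes tested. S1pr1 was higher in CC in C, with a log2 ratio of 0.93 (0.14 to 1.76), and in CK, with 1.00 (0.36 to 1.65), but not in WT, with 0.02 (-0.96 to 1.07), or K, with -0.01 (-0.99 to 0.95). These differences between libraries were not tested. Rgs13 was lower in CC in WT, with -0.23 (-0.36 to -0.08), and higher in CK, with 0.29 (0.20 to 0.38). Ccr7 had 1 UMI in WT CB and stayed under the minimum there.

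**Figure D2:**
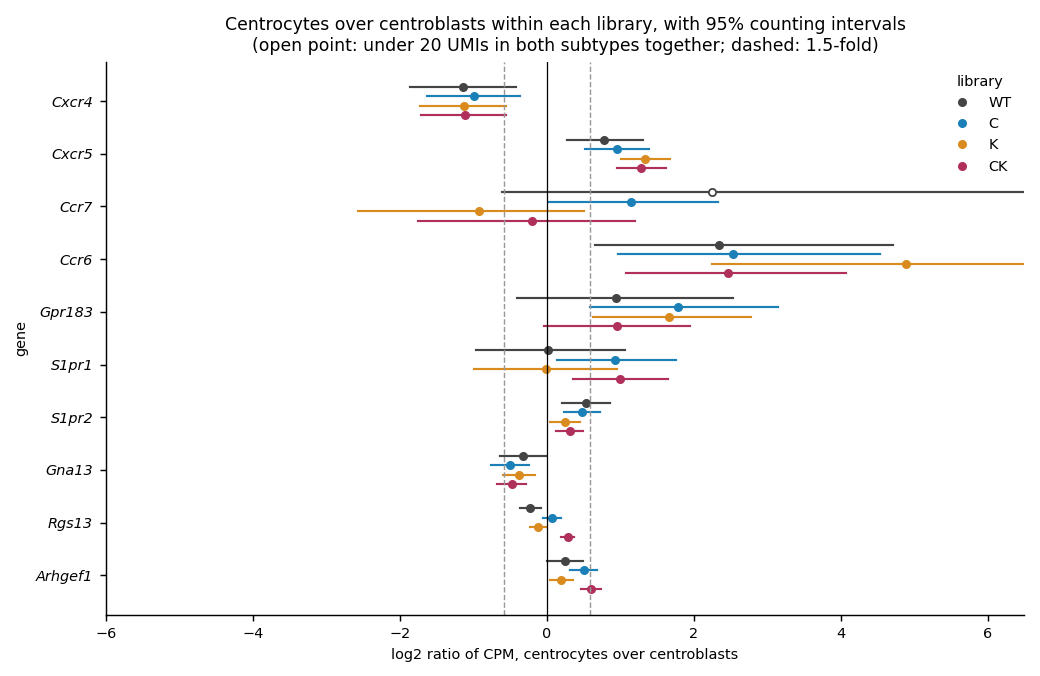
The log2 ratio of CPM in CC over CB is plotted for each gene on the y axis and each library by color, with 95% counting intervals cut at the edge of the axis. All 4 points lie beyond the dashed 1.5-fold line on the low side for Cxcr4 and on the high side for Cxcr5, Ccr6 and Gpr183.

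Along the deposited pseudotime, a rank of annotated cells whose first bins hold early CB and CB and whose last bins hold CC and prememory cells, the members kept these groups. The cells were placed in 10 bins by the deciles of WT cells, and the means of the 4 libraries are given. Cxcr5 was at 36.6 CPM in the first bin, its lowest mean, and highest at 74.0 CPM in the ninth, where K was at 114 CPM and WT, C and CK at 67.8, 52.6 and 62.0 CPM. The highest bin of Cxcr5 was 7, 8, 9 and 7 in the 4 libraries. Arhgef1 went from 199 to 279 CPM between the first bin and the ninth, whereas Gna13 went from its highest mean of 159 CPM in bin 4 to 67.7 CPM in bin 10. S1pr2 was at 133 CPM in the first bin, highest at 176 CPM in bin 6 and at 72.7 CPM in bin 10. Ccr7, Ccr6, Gpr183 and S1pr1 were highest in bin 10 in each of the 4 libraries, at mean levels of 50.2, 21.6, 55.8 and 53.5 CPM. Bin 9 held means of 17.2, 7.77, 22.9 and 20.7 CPM of these genes. The means of Cxcr4 were highest at 28.1 CPM, and its highest bin moved from bin 5 to bin 1 with the deciles of each library's own cells.

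The last bin held 588 CC, 415 prememory cells and 19 transitioning cells, and the prememory share differed by library: 122 WT cells became 34 without them, and 400 CK cells became 315. Without prememory cells, Ccr7 in bin 10 was at 9.32 CPM in place of 50.2 and S1pr2 at 121 CPM in place of 72.7. Rgs13 was at 466 CPM in place of 306. S1pr2 in that bin was at 23.4, 56.8, 92.0 and 119 CPM in WT, C, K and CK with prememory cells, and at 69.4, 136, 129 and 148 CPM without them, where the WT value rests on 8 UMIs and its interval reaches 137 CPM. The mean of Ccr6 was 31.4 CPM without prememory cells against 21.6 CPM with them. It was higher without them in WT, C and K, but the WT value rests on 5 UMIs (14.1 to 101 CPM). In CK it went from 12.8 to 11.6 CPM, the latter from 8 UMIs. Leaving prememory cells out moved 8 of the 10 members by more than the SD of the 4 libraries, all but Cxcr5 and Gna13.

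**Figure D3:**
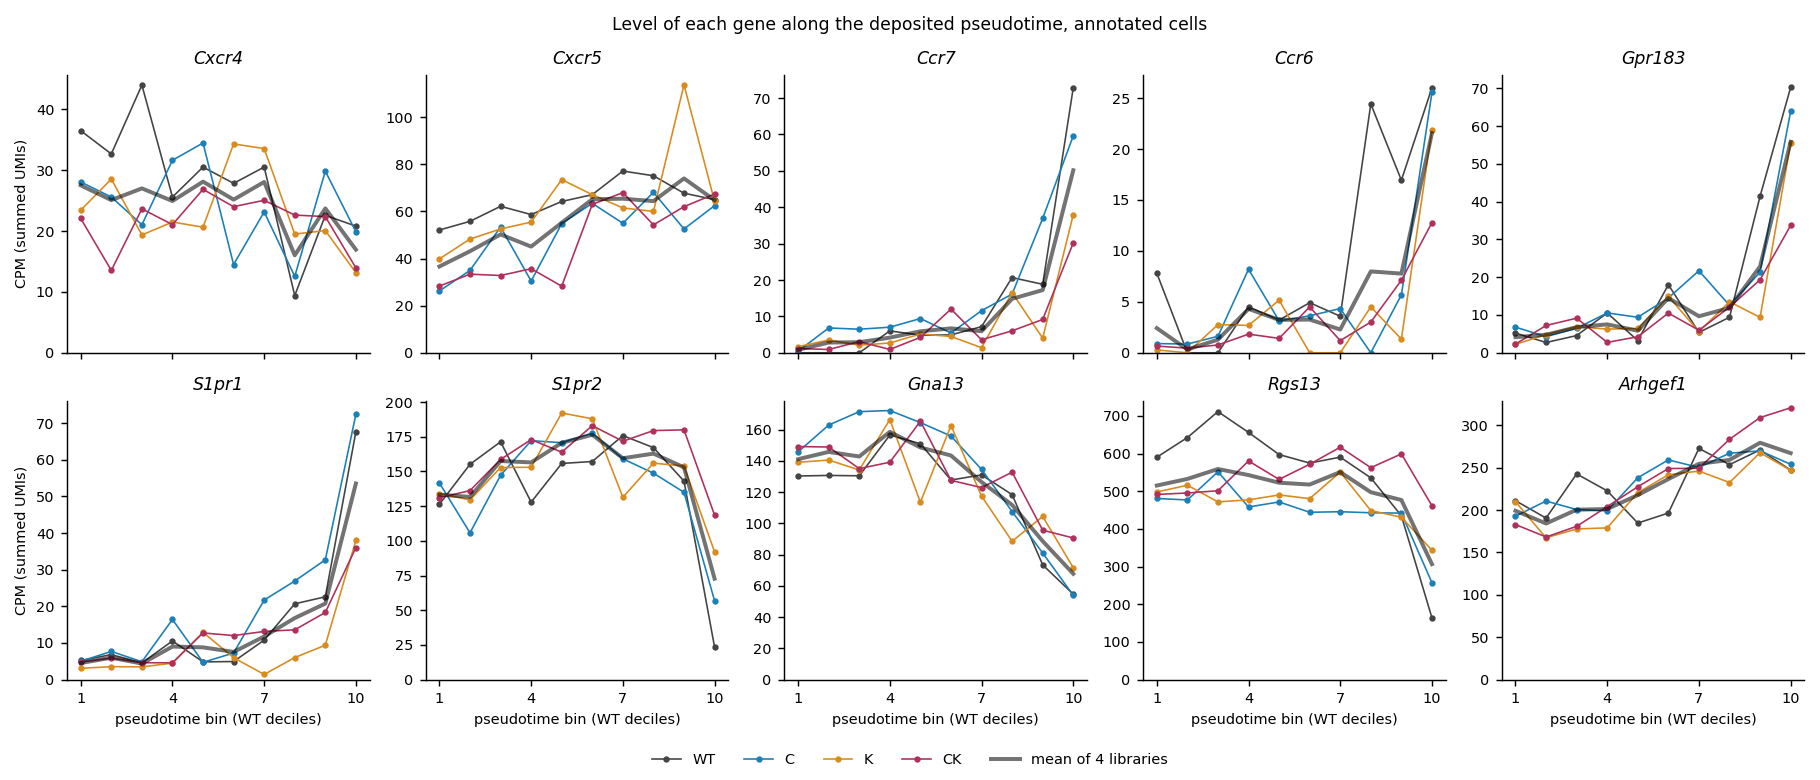
CPM of summed UMIs is plotted against the pseudotime bin for each gene, with a colored line for each library and a thick line for the mean of the 4 libraries. Ccr7, Ccr6, Gpr183 and S1pr1 are at most 14.5 CPM on the mean line through bin 7 and are highest in bin 10, where S1pr2, Gna13 and Rgs13 are at their lowest means.

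Prememory cells held Ccr7 and Gpr183 at levels nearer to follicular B-like cells than to the other GC subtypes. Their S1pr1 lay between the levels of both. In WT it was nearer in CPM to CC, at 14.8 CPM, than to follicular B-like cells, at 141 CPM. Prememory Arhgef1, at 163 to 197 CPM, overlapped that of early CB. Ccr7 was at 92.8, 98.9, 122 and 131 CPM in WT, C, K and CK, Gpr183 at 68.2, 66.9, 77.7 and 113 CPM, and S1pr1 at 51.1, 98.9, 84.5 and 86.3 CPM, below every follicular B-like value. S1pr2 was at 0 to 5.68 CPM, from 6 UMIs in all. Rgs13, at 62.5 to 132 CPM, lay above every follicular B-like value and below every GC subtype from early CB to CC.

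The genotypes were compared with WT in CB, transitioning cells and CC, to ask whether loss of Crebbp, Kmt2d or both came with a change in positioning genes. Only members with at least 20 UMIs over both libraries were counted, and a member counted as different at 1.5-fold either way. In CB this held for 0 of 7 members in C (17.0% of all genes tested), 1 of 7 in K (30.7%) and 3 of 8 in CK (23.5%). In transitioning cells it held for 0 of 8 in C (10.4%), 1 of 8 in K (27.9%) and 2 of 8 in CK (15.5%), and in CC for 1 of 10 in C (11.5%), 2 of 9 in K (27.2%) and 2 of 9 in CK (12.8%). The 3 members in CB of CK were Cxcr5, Gpr183 and S1pr1, all lower than WT. The cluster that held the most CB differed by library: 51.9% of WT and 38.0% of K cells were in one cluster, and 39.2% of C and 50.4% of CK cells in another, and the part of this in the ratios was not tested. With 7 to 10 members, shares this close to the background are no result about the members. The median log2 ratio of all genes was -0.15 in CB, -0.14 in transitioning cells and -0.14 in CC for K, and between -0.04 and 0.04 for C and CK. The 3 comparisons of a subtype share the same WT library, so an unusual WT value moves all 3.

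Rgs13 had the narrowest intervals and was below WT in 8 of 9 comparisons. In CB its log2 ratio was -0.52 (-0.66 to -0.37) for C. The ratio of K was -0.39 (-0.52 to -0.26), and that of CK was -0.46 (-0.59 to -0.34). In transitioning cells it was -0.45, -0.45 and -0.33, from 621 CPM in WT to 454, 456 and 493 CPM. In CC, C (-0.22) and K (-0.28) were still below WT, whereas CK was at 622 CPM against 602 CPM in WT, a log2 ratio of 0.05 (-0.06 to 0.16). Early CB did not share this pattern: Rgs13 was at 417 CPM in WT and 469 to 506 CPM in the mutants. None of these ratios passed 1.5-fold. Over the alternatives run, the Rgs13 ratios in CB ran from -0.52 to -0.24 for C, -0.50 to -0.17 for K and -0.90 to -0.28 for CK. The upper end of each range lay outside the counting interval of the reported ratio. Rgs13 of CK was above WT in T-like cells, with 0.43 (0.03 to 0.85), at 23.9 against 17.7 CPM, and in follicular and marginal zone B-like cells it was at 0.31 (-0.01 to 0.64). Relative to T-like cells, the Rgs13 ratios of CK were -0.90 in CB and -0.77 in transitioning cells, past 1.5-fold. Relative to follicular and marginal zone B-like cells, where Rgs13 of CK was at 49.9 against 40.2 CPM, both were past 1.5-fold too. That reference ratio had an interval with 0. Rgs13 in T-like cells was at the level taken above as the background of free RNA. The 2 ratios relative to T-like cells therefore cannot show a larger difference in GC cells.

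Cxcr5 was below WT in 8 of 9 comparisons. In CK its log2 ratio was -0.71 (-1.21 to -0.17) in CB and -0.71 (-1.02 to -0.40) in transitioning cells, and in C it was -0.58 (-0.92 to -0.23) in transitioning cells. In CC the ratios of C (-0.19) and CK (-0.20) had intervals that held 0, and K was at 0.20 (-0.11 to 0.52). CK was also lower in follicular and marginal zone B-like cells together, with 49.6 CPM against 70.5 in WT and a log2 ratio of -0.51 (-0.80 to -0.22). Relative to those cells, the ratios of CK in CB and transitioning cells were -0.20 and -0.21. Cxcr4 in CK was at -0.62 (-1.02 to -0.22) in transitioning cells, while its ratios in CB (-0.50) and CC (-0.48) had intervals with 0. CK was at -0.33 in T-like cells, and relative to them Cxcr4 in transitioning cells was at -0.29. With the cells of 2500 or more genes added, 0 members of CK passed 1.5-fold in transitioning cells.

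S1pr1 was the member with the most ratios past 1.5-fold, 4 of 9. In K it was below WT at 6.82 against 14.5 CPM in CB, a log2 ratio of -1.09 (-2.10 to -0.03), and at 6.79 against 14.8 CPM in CC, -1.12 (-2.09 to -0.19). In both subtypes K had no more than 24 S1pr1 UMIs. K was also lower in T-like cells, at 101 against 143 CPM, with a log2 ratio of -0.50 (-0.68 to -0.32), and in follicular and marginal zone B-like cells together, with -0.26 (-0.43 to -0.08). In CC the other 2 mutants lay above WT, at 20.2 CPM in C and 17.0 CPM in CK, with intervals that held 0.

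Ccr6 was tested in CC alone and was below WT in each mutant there. Its 4 values were 15.9, 11.1, 8.39 and 7.01 CPM, with log2 ratios of -0.51 (-1.39 to 0.35), -0.92 (-1.80 to -0.06) and -1.18 (-2.09 to -0.29). K was lower in follicular and marginal zone B-like cells together too, with -0.87 (-1.34 to -0.42), whereas CK was at -0.19 (-0.57 to 0.18) in them. Ccr7 could be compared in CC of C only, where 22 UMIs against 9 in WT gave 1.25 (0.07 to 2.55).

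S1pr2, Gna13 and Arhgef1, the arm that confines B cells to the GC, had no reported ratio past 1.5-fold over WT in the 3 subtypes. S1pr2 ratios ran from -0.20 in CC of K to 0.17 in CB of CK, and each of the 9 intervals held 0. Together the 9 intervals ran from -0.42 to 0.48, which covers counting error only, and the spread between mice is unknown. Over the alternatives run, S1pr2 of K in CC ran from -0.73 to -0.07. The low end, past 1.5-fold, was relative to follicular and marginal zone B-like cells. S1pr2 of K in those cells was at 0.53 (-0.32 to 1.36), from 24 UMIs against 29 in WT. Gna13 was at 0.21 (0.01 to 0.41) in transitioning cells of C. Arhgef1 was at -0.18 (-0.33 to -0.03) in transitioning cells of K, and in CC it was at 0.21 in both C (0.02 to 0.39) and CK (0.04 to 0.38).

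**Figure D4:**
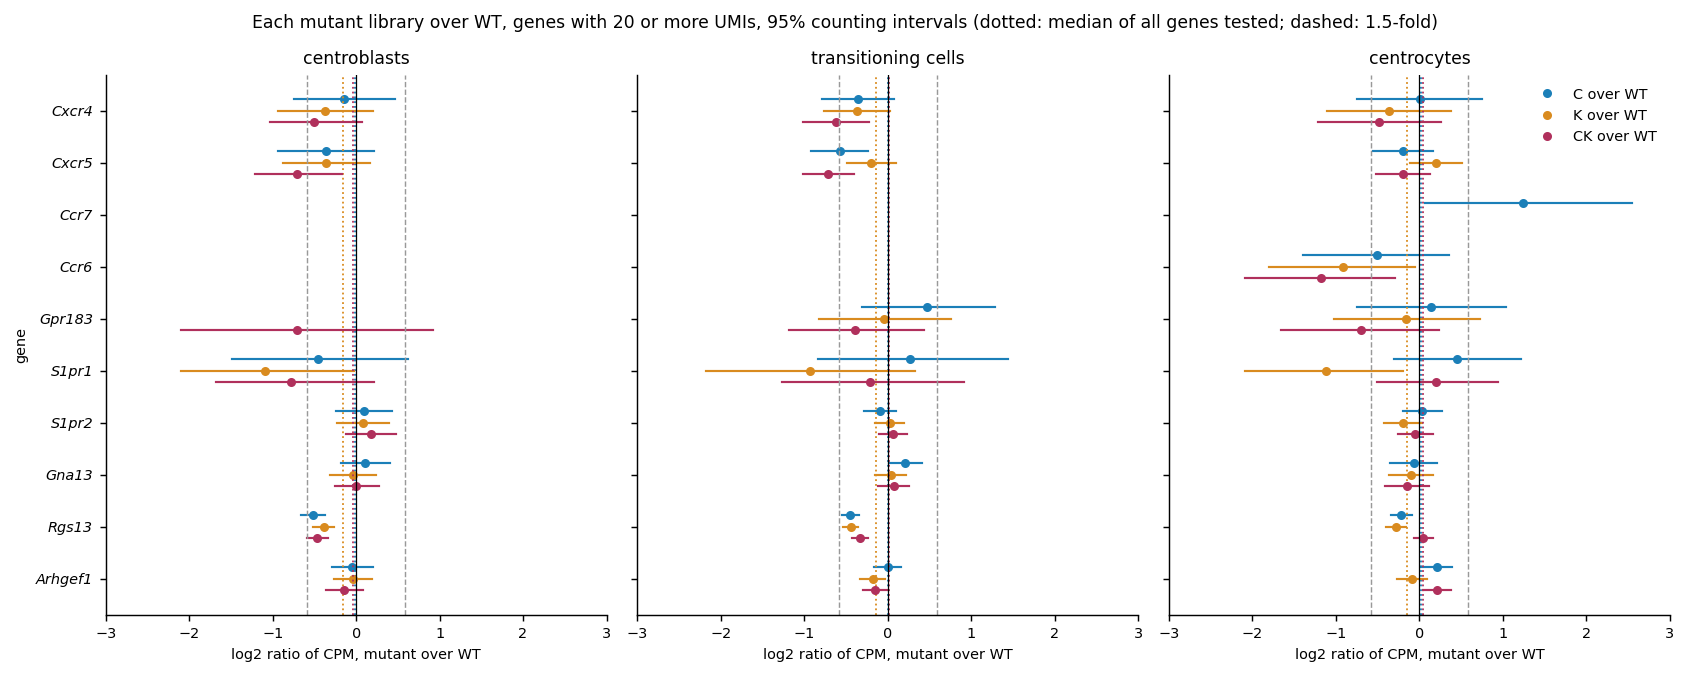
The log2 ratio of CPM in each mutant library over WT is plotted for each gene, by subtype and mutant, with 95% counting intervals and the 1.5-fold limits. Rgs13 lies left of 0 in 8 of its 9 ratios but within the limits, S1pr2 stays around 0, and the S1pr1 and Ccr6 intervals are wide.

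The same comparisons were read in 54 further genes of the pathway, listed by role. Of the 34 with enough UMIs in every library, 6 were at least 1.5-fold higher in CC than in CB in all 4 libraries and 0 were lower. With 14.7% of all genes past this limit either way, that share is near the background and is no result about the list. The 6 were the receptors S1pr3 and Gpr18, the lectin Cd69, which takes S1PR1 off the cell surface, the sphingosine 1-phosphate lyase Sgpl1, the transcription factor Klf2, which drives S1pr1, and the integrin Itgb7. S1pr3 had log2 ratios of 1.98, 2.31, 1.96 and 2.43 in WT, C, K and CK. The 8 genes for ligands and ligand-making enzymes were all under the UMI minimum.

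Over WT, K had the most pathway genes past 1.5-fold, all but 1 of them lower, and it also had the most over all genes, with 30.7% in CB, 27.9% in transitioning cells and 27.2% in CC. In CB, 13 of 31 were lower and 1 higher with a median log2 ratio of -0.35, in transitioning cells 16 of 37 lower and 0 higher (-0.46), and in CC 13 of 37 lower and 0 higher (-0.30). In CB the named genes were Rgs14 (-0.87), Rock2 (-0.86) and Dock2 (-0.85). The medians of all genes in K were -0.15, -0.14 and -0.14. In CC of K, Dock2, an activator of Rac in migrating lymphocytes, was at 71.5 against 177 CPM in WT, a log2 ratio of -1.30 (-1.58 to -1.04). Dock8, a CDC42 activator, was at -1.30 and the kinase Rock2 at -1.07. These genes were also lower in K in cells outside the GC, where Dock2 was at -0.83 in follicular and marginal zone B-like cells and -0.99 in T-like cells, Dock8 at -0.53 and -0.77, and Rock2 at -0.99 and -1.09. CK had 10 of 35 lower and 1 higher in CB, 9 of 38 and 1 in transitioning cells, and 5 of 40 and 1 in CC, against 23.5%, 15.5% and 12.8% of all genes either way, with medians of -0.20, -0.29 and -0.13. In CB of CK, Rgs14, a regulator of Gαi signals, had a log2 ratio of -1.13 (-1.83 to -0.39), the receptor S1pr4 one of -0.98 and the integrin chain Itgb2 one of -0.97. Rgs14 in T-like cells of CK was at -0.35. C had 2 higher and 1 lower of 31 in CB, 2 and 1 of 36 in transitioning cells, and 1 and 1 of 38 in CC, against 17.0%, 10.4% and 11.5%.

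The genes whose levels most resembled each member were taken from 2827 genes over 20 points, the 5 subtypes other than recycling in the 4 libraries, which share libraries, depth and the annotation. S1pr2 was most like Basp1, Eaf2 and Fas, with Pearson's r across these points of 0.99 for each. Ccr7 was most like S100a10, Plac8 and Itm2b, with r of 0.97 for each, and S1pr1 like S100a10, Ifi203 and Mndal, with 0.97 for each. Rgs13 was most like Ublcp1, Sypl and Gnai2, with 0.97 for each. Cxcr4 was most like Mapre2 (0.91), Cxcr5 like 4930426D05Rik (0.87), Ccr6 like Zfp36l1 (0.93), Gpr183 like Iglc2 (0.96), Gna13 like H1f0 (0.94) and Arhgef1 like Mxd4 (0.91). Among the members, Ccr7 followed Gpr183 (0.96) and ran against S1pr2 (-0.97). Prememory points stood apart, with Ccr7 at 92.8 to 131 CPM and S1pr2 at 0 to 5.68 CPM. In the other subtypes used, Ccr7 was at most 11.7 CPM and S1pr2 at least 115 CPM. The part of this split in the r values was not tested.

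All 10 members are protein-coding genes in GENCODE, with positions here in GRCm38. S1pr2 lies at chr9:20962361-20976781 and Rgs13 at chr1:144138654-144177372, both on the minus strand and free of overlapping genes. Cxcr5 (chr9:44511787-44561877), Gpr183 (chr14:121952551-121965195) and Gna13 (chr11:109362831-109401369) each overlap a gene on the other strand, Bcl9l, Ubac2 and Gm11696 in that order. Whether the counting used strand is not given in the sources used here, so reads of such pairs may not be separable.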

How the data were processed

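Per the labels, B220+IgD- splenic cells were sorted and sequenced with 10x Chromium 3′ chemistry. The submitters' processing notes name Cell Ranger 3.0 and Seurat 4.0, and the build is mm10. The authors deposited raw UMI counts per gene and barcode for 4 libraries, and a table of 9804 cells with UMI counts, the percent of mitochondrial UMIs, GC subtype and pseudotime rank. Its cells had under 2500 genes and under 8% mitochondrial UMIs. All 9804 matched a barcode.

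From the counts, UMIs were summed per library and class and divided by the class total to give CPM. Levels have exact Poisson intervals, ratios exact conditional binomial intervals and shares Clopper-Pearson intervals, all at 95% and for counting error only. With 1 library per genotype, no test between genotypes was possible. Classes were compared within each of the 4 libraries, with no p-value, since expression defined the classes. Ratios needed at least 20 UMIs over both sides, and a fold of 1.5 counted as different. Levels of different genes were not compared, since CPM were not scaled by length. Annotated and unannotated cells were clustered together with scanpy 1.11.5 (2000 variable genes, 30 components, 15 neighbours, Leiden at resolution 1.5) and the clusters were named from marker lists to class the unannotated cells. Clusters that failed the marker rule, and 2 clusters mostly called doublets, stayed unnamed and out of these classes. Scrublet marked 3.32% to 5.01% of cells. Other marked cells were kept, and an alternative left them out. For likeness, log2(CPM + 10) was used over genes of at least 50 mean CPM, and the 3 genes with the highest r were taken. The pathway genes named over WT in CB and CC are up to 3 each way per comparison with the largest ratios past 1.5-fold, an interval without 0 and at least 50 UMIs. The ratio script was tested on simulated counts. The members and lists were chosen with earlier results of these data known.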

Additional observations from a re-analysis of the deposited data

Results flagged for a closer look

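Rgs13 moved in opposite directions between the zones in different genotypes. Its log2 ratio of CC over CB was -0.23 in WT and -0.12 in K but 0.29 in CK, each with a counting interval that left out 0. The difference between genotypes was not tested, since each genotype is 1 mouse. With the cells of 2500 or more genes added, the ratio of Rgs13 was 0.12 in WT, 0.15 in K and 0.46 in CK, so that WT and K lay on the same side as CK. With median-ratio scaling the Rgs13 ratio in WT was -0.01.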

How the results depend on the processing

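No reported ratio past 1.5-fold changed sign under the alternatives run, but smaller ones did. The Cxcr4 ratios of K were -0.38 in CB, -0.37 in transitioning cells and -0.37 in CC. Relative to T-like cells they became 0.72, 0.73 and 0.74, past 1.5-fold. Cxcr4 of K in T-like cells was at -1.10 (-1.86 to -0.38), from 24 UMIs against 53 in WT. Of the ratios recomputed, 527 of 577 over WT and 207 of 219 of CC over CB stayed within the counting interval of the reported value, and the other 50 and 12 moved beyond it. The counts of members past 1.5-fold were less steady, and the cause was not tested except that a stricter minimum tests fewer genes. The 4 members of CC over CB became 2 with thinned cells and 2 with at least 50 UMIs, and ranged from 4 to 4 when 1 library was left out. For CB, the 0 of C became 1 with the larger cells added, 1 relative to T-like cells and 3 with no minimum. The 1 of K became 2, 2 and 4 in these settings and 0 at 50 UMIs, and the 3 of CK became 1 with larger cells, 5 with no minimum, and 2 thinned, without Scrublet calls, relative to non-GC B-like cells and at 50 UMIs. For transitioning cells, the 0 of C became 1 thinned, 2 with larger cells and 1 with no minimum. The 1 of K became 0 thinned, 0 without Scrublet calls and 0 at 50 UMIs. The 2 of CK became 1 thinned, 1 without Scrublet calls, 0 with larger cells, and 1 relative to either non-GC B-like or T-like cells. Relative to either, the 1 was Rgs13, and neither Cxcr4 nor Cxcr5 passed. Rgs13 in T-like cells was at the level taken as the background of free RNA. For CC, the 1 of C became 0 thinned, 0 without Scrublet calls and 0 at 50 UMIs, the 2 of K became 1 thinned and 1 at 50 UMIs, and the 2 of CK became 1 relative to either reference and 0 at 50 UMIs. The 2 of K stayed 2 relative to either reference, but Ccr6 was no longer among them. They were S1pr1 and S1pr2 relative to non-GC B-like cells. Relative to T-like cells they were S1pr1 and Cxcr4, the latter higher than WT. Of 20 highest pseudotime bins under other binnings, 18 stayed. The last bin without prememory cells, an alternative chosen after seeing the data, moved 8 of 10 levels. No paired analysis was possible between genotypes because each has 1 library. CC and CB were compared within each of the 4 libraries, as a description with no p-value, since expression gave the subtype names.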
